A study of Mus musculus with 8 samples.

Results

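Calcium extrusion genes encode the proteins that carry calcium out of a cell across its plasma membrane. The group described here holds 10 genes, the sodium-calcium exchangers Slc8a1, Slc8a2 and Slc8a3, the potassium-dependent sodium-calcium exchangers Slc24a2, Slc24a3 and Slc24a4, and the plasma membrane calcium pumps Atp2b1, Atp2b2, Atp2b3 and Atp2b4. They were chosen by family membership, and in part because Slc8a1 was lower in the mutants, so the difference between mutants and controls is given for them as a description. The fit across all genes includes them, and how many passed its threshold is printed only beside the share of all genes, not as support. An array feature (transcript cluster) that named 1 gene symbol was available for 9 of the 10 genes, out of 19928 genes in all, and where a gene had several such clusters the one with the highest mean was kept. The annotation used here paired no cluster with Atp2b4 alone, and that gene was not analysed here.

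The mRNA abundance in the olfactory mucosa was measured in 8 mice at postnatal day 3, with 1 array per mouse, on a mixed 129 and C57BL/6J background. The mutants were 4 123Cre:Lhx2(fl/fl) mice, called cKO, and the controls were 2 123Cre:Lhx2(fl/+) mice (controls 3 and 4) and 2 Lhx2(fl/+) mice (controls 1 and 2). In all 8 mice at least 1 allele of Lhx2, which encodes a LIM-homeodomain transcription factor, was therefore floxed, and no wild-type mouse was among them. The 123Cre transgene becomes active in immature olfactory sensory neurons (OSNs), it removes the first exons of Lhx2, and recombination is incomplete, so that most OSNs of the mutants still contain Lhx2 mRNA. The sample titles carry a letter whose meaning is not stated. It is A for cKO mice 1, 3 and 4 and controls 3 and 4, and B for cKO mouse 2 and controls 1 and 2, so that letter and genotype cannot be told apart among the controls. By sex-linked mRNAs cKO mouse 2 and controls 1 and 4 were female and the other 5 mice male. Among the males, Xist read 9.85 and 9.32 in cKO mice 1 and 3 and 9.2 in control 2. It read 7.48 in cKO mouse 4 and 6.74 in control 3, and the reason for this spread was not tested. In the study, litters gave both mutants and controls, but the labels tie no mouse to a litter, and p-values here measure the spread between these 8 mice.

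When odorants open the cyclic nucleotide-gated channel in the cilia of an OSN, calcium flows in, opens a chloride channel and, through calmodulin, reduces the sensitivity of the cell. For the response to end, that calcium has to be removed again. Exchangers do this by letting sodium run down its gradient into the cell, and the SLC24 family also moves potassium outward with calcium. The pumps instead spend ATP to carry calcium out, with high affinity and a low turnover. In mouse OSNs the SLC24A4 protein is known to be needed for a fast end of the odor response and for normal adaptation.

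The arrays had medians between 8.82 and 8.89 on the log2 scale, and the quartiles of the arrays differed by at most 0.12. The Lhx2 cluster, which is not confined to the deleted exons, averaged 12.90 ± 0.24 in cKO mice and 13.14 ± 0.05 in controls (SD, n = 4 each), and cKO mouse 2 was the lowest at 12.55. The tissue carried the markers its label implies: the 16 mature OSN markers had a mean log2 value of 11.50 ± 0.30 in cKO mice and 12.26 ± 0.04 in controls, a difference of -0.76 (exact permutation test over 70 arrangements, two-sided, p = 0.0286, the smallest possible, and 0.186 after adjustment over 13 cell type lists). Of these markers 6 were past the threshold and lower, beside 2.07% of all genes. The marker lists were chosen with earlier results of these data known, so the p-value of this list is a description and not support. In bulk tissue, fewer cells of a type and less RNA per cell cannot be told apart.

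Of the 9 calcium extrusion genes measured, 2 were lower in the cKO mice at an adjusted p under 0.01 across all genes (limma), namely Slc8a1 and Slc24a2, and 0 were higher. Across all genes 2.07% were lower and 0.0602% were higher by the same threshold. At an unadjusted p under 0.05, 3 members were lower and 1, Atp2b2, was higher, beside 9.87% and 5.13% of all genes. In 3 of the 9 genes every cKO array lay below every control array (8.43% of all genes), and in 0 every cKO array lay above (3.18% of all genes). Since the genes were chosen in part on this contrast, nothing is read from these counts. The median difference of the 9 genes was -0.02, beside 0.03 over all genes tested, and their differences ran from -0.86 for Slc8a1 to 0.50 for Atp2b2. Levels of different genes are not set against each other, because array features differ in brightness for the same amount of RNA.

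**Figure D1:**
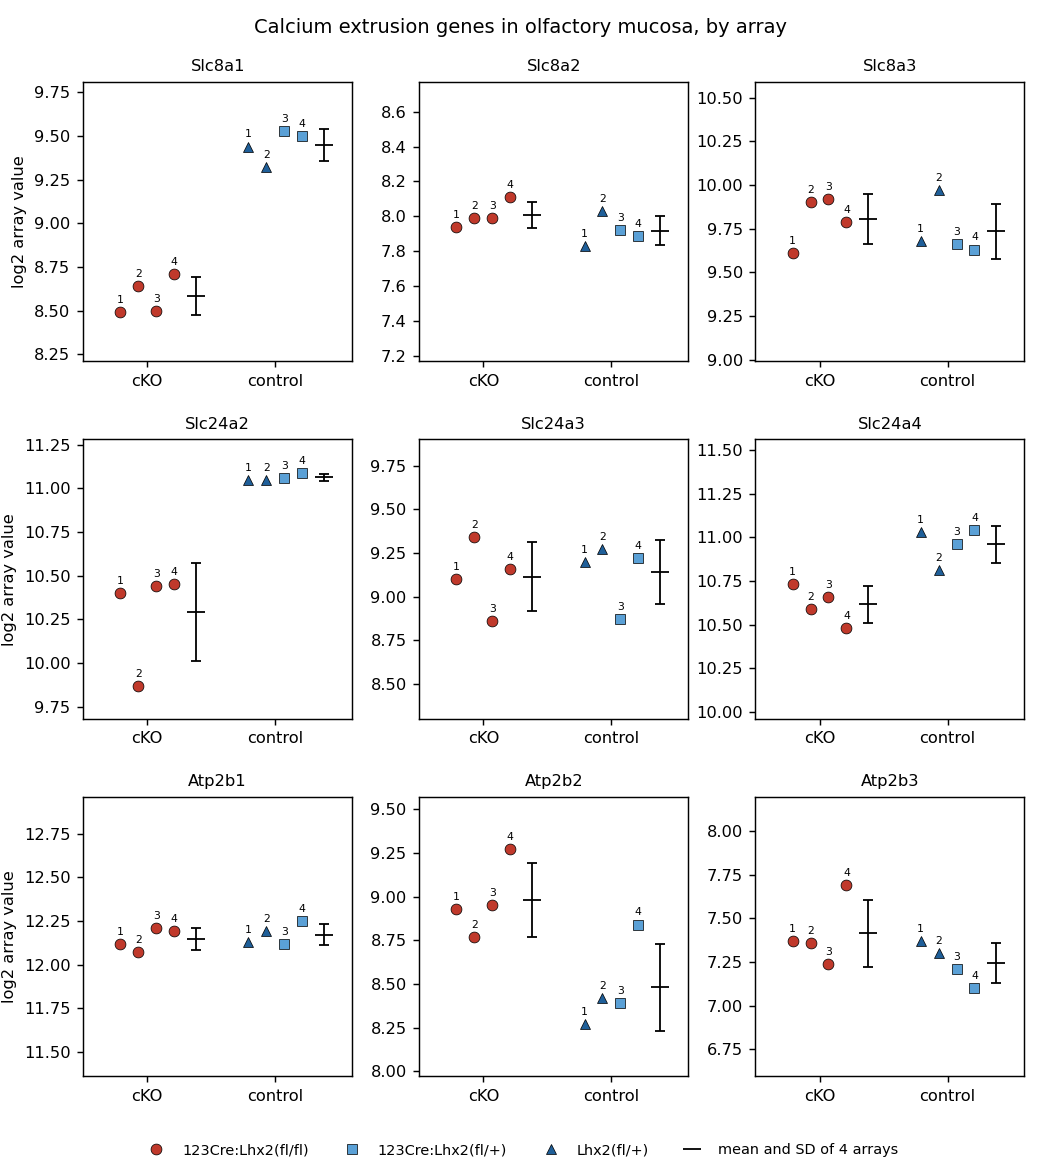
Log2 array values (vertical axis, all panels of the same height in log2 units) of the 9 measured calcium extrusion genes in 4 cKO and 4 control mice, numbered within each group, with the mean and SD of each group beside the points. In Slc8a1, Slc24a2 and Slc24a4 all cKO points lie below all control points, and in the other 6 genes the groups overlap.

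The sequence before the annotated start is shown for these 3 exchangers, because they are the genes whose groups do not overlap. Each run is 250 bases long and ends just upstream of a RefSeq start (GRCm38.p6), 5′ to 3′ on the strand of the gene, and capitals mark TAATTA, a core sequence that LIM-homeodomain proteins bind. The Slc8a1 window lies at chr17:81738388-81738637 on the minus strand, the Slc24a2 windows at chr4:87230541-87230790 (upstream start) and chr4:87227964-87228213 (downstream start) on the minus strand, and the Slc24a4 window at chr12:102128477-102128726 on the plus strand.
Slc8a1: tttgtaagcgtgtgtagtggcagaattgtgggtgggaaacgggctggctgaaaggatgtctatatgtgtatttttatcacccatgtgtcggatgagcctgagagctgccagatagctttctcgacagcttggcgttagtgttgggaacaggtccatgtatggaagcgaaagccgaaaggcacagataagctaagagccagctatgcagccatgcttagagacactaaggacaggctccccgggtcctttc
Slc24a2, upstream start: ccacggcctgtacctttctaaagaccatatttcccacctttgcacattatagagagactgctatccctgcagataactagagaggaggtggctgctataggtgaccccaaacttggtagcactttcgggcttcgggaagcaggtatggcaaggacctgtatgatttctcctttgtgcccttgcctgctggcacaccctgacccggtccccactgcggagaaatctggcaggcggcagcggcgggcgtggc
Slc24a2, downstream start: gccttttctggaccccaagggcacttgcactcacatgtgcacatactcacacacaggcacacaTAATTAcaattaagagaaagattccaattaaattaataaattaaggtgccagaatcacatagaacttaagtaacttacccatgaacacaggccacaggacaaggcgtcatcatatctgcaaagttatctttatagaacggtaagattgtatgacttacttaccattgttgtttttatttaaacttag
Slc24a4: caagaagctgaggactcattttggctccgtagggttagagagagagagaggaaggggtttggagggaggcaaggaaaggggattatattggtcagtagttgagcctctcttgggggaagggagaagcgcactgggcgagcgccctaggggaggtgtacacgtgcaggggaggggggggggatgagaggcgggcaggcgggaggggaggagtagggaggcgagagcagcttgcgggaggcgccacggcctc

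The table of starts held 14 windows for 9 of the 10 genes, Atp2b4 included. Of these windows only the one before the downstream start of Slc24a2 held TAATTA, with its first base 187 bases upstream of the start. The same letters occurred in 4.84% of all 32851 windows of this length. TCCC followed by any pair of bases and GGGA, a form of the site bound by the Ebf proteins of OSNs, occurred in 0 of the 14 windows and in 0.779% of all windows. Both motifs read the same on both strands, and they do not overlap each other. A match describes these letters only and says nothing of binding, and which start is used in the olfactory mucosa was not measured. The base composition of the windows differed, with 36.8% G and C before the downstream start of Slc24a2, 50.4% for Slc8a1, 56.0% before the upstream start of Slc24a2 and 62.8% for Slc24a4.

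Among the sodium-calcium exchangers, Slc8a1 had the lower values that in part prompted the choice of this gene group. It encodes NCX1, the exchanger best known from the heart and also found in many neurons. Its cluster (10453233) read 8.49, 8.64, 8.50 and 8.71 in cKO mice 1 to 4, and 9.44, 9.32, 9.53 and 9.50 in controls 1 to 4. The highest cKO array lay 0.61 below the lowest control array, and the range within a group was 0.22 in cKO mice and 0.21 in controls. The log2 difference was -0.86 (SE 0.07, 95% interval -1.02 to -0.71), or 55.0% of the control level. It ran from -0.90 to -0.83 when any 1 array was left out. It was -0.95 within title letter A and -0.74 within title letter B, which holds 1 cKO mouse.

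A second single-symbol cluster of Slc8a1 (10453231) gave another reading of the same gene in the same mice. It read 7.66, 7.70, 7.78 and 8.21 in cKO mice 1 to 4, and 8.46, 8.53, 8.76 and 8.46 in controls 1 to 4. Its groups did not overlap either, and its difference was -0.71 (SE 0.12), or 61.0% of the control level. In a fit over all single-symbol clusters its adjusted p was 0.0131 (limma), so this cluster did not pass the threshold of 0.01. In both clusters cKO mouse 4 was the highest of the mutants.

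The other SLC8 genes showed no such gap. Slc8a2, which encodes an exchanger of brain neurons, read 7.94, 7.99, 7.99 and 8.11 in cKO mice and 7.83, 8.03, 7.92 and 7.89 in controls, a difference of 0.09 (95% interval -0.04 to 0.22). Slc8a3, which encodes an exchanger of brain and skeletal muscle, read 9.61, 9.90, 9.92 and 9.79 in cKO mice and 9.68, 9.97, 9.66 and 9.63 in controls, a difference of 0.07 (95% interval -0.14 to 0.29). Control 2 was the highest Slc8a3 array, and the groups overlapped in both genes.

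Of the potassium-dependent exchangers, Slc24a2 differed most. It encodes NCKX2, an exchanger of cone photoreceptors and brain neurons. Its cluster (10514240) read 10.40, 9.87, 10.44 and 10.45 in cKO mice 1 to 4, and 11.05, 11.05, 11.06 and 11.09 in controls 1 to 4. The controls lay within 0.04 of each other, and the mutants spanned 0.58 because cKO mouse 2 lay 0.56 below the mean of the other mutants. The difference was -0.77 (SE 0.12, 95% interval -1.04 to -0.50), or 58.6% of the control level, and -0.63 without cKO mouse 2, the only female mutant and the only one with letter B. When any 1 array other than that of cKO mouse 2 was left out, Slc24a2 was no longer past the threshold. Within title letter A its difference was -0.64, and within letter B, where cKO mouse 2 was the only mutant, it was -1.17.

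Slc24a4, the exchanger of the OSN cilia, was lower by a smaller amount. It read 10.73, 10.59, 10.66 and 10.48 in cKO mice 1 to 4, and 11.03, 10.81, 10.96 and 11.04 in controls 1 to 4. The groups were apart by only 0.09, between cKO mouse 1 and control 2. The difference was -0.35 (SE 0.07, 95% interval -0.51 to -0.19), or 78.7% of the control level, and ran from -0.40 to -0.30 when any 1 array was left out. The gene did not pass the threshold of 0.01. It was below an adjusted p of 0.05 (limma) with all arrays, but not in 5 of the 8 fits that left out an array, nor with either control genotype alone.

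Slc24a3 encodes NCKX3, found in brain and smooth muscle. It read 9.10, 9.34, 8.86 and 9.16 in cKO mice and 9.20, 9.27, 8.87 and 9.22 in controls, a difference of -0.03 (95% interval -0.29 to 0.24). The lowest array was 8.86 in cKO mice and 8.87 in controls, and the groups overlapped.

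None of the 3 measured pump genes passed the threshold. Atp2b1 encodes PMCA1, the pump found in nearly all cells. It read 12.12, 12.07, 12.21 and 12.19 in cKO mice and 12.13, 12.19, 12.12 and 12.25 in controls, a difference of -0.02 with the narrowest interval of the 9 genes (-0.14 to 0.09). Atp2b3, a pump of the brain, read 7.37, 7.36, 7.24 and 7.69 in cKO mice and 7.37, 7.30, 7.21 and 7.10 in controls, a difference of 0.17 (95% interval -0.06 to 0.39). Both of its means, 7.42 in cKO mice and 7.25 in controls, lay below the lower quartile of all gene means (7.52), and without cKO mouse 4 its difference was 0.08.

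Atp2b2 had the largest positive difference among the members. This gene encodes PMCA2, the pump of hair cell stereocilia and of cerebellar Purkinje cells. It read 8.93, 8.77, 8.95 and 9.27 in cKO mice 1 to 4, and 8.27, 8.42, 8.39 and 8.84 in controls 1 to 4. The groups overlapped through cKO mouse 2 and control 4 alone, which were 0.07 apart. The difference was 0.50 (SE 0.14, 95% interval 0.19 to 0.82), or 142% of the control level, and the gene did not pass the threshold. The difference was 0.44 within title letter A and 0.43 within letter B.

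**Figure D2:**
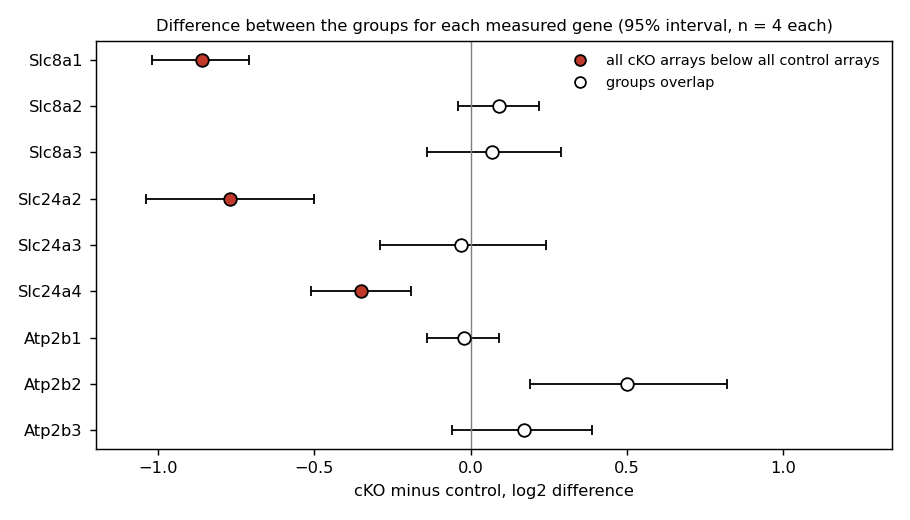
Log2 difference, cKO minus control (horizontal axis), with its 95% interval for each of the 9 measured genes (n = 4 arrays in each group), filled where all cKO arrays lie below all control arrays. The intervals of Slc8a1, Slc24a2 and Slc24a4 lie below 0, that of Atp2b2 lies above 0, and the other 5 include 0.

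Markers of olfactory bulb neurons, which can enter a dissection of the mucosa, were examined beside the pumps. The mean of the 7 bulb markers was 8.25, 8.22, 8.39 and 8.80 in cKO mice 1 to 4, and 8.36, 8.37, 8.42 and 8.34 in controls 1 to 4, and 0 of the 7 passed limma's threshold (1 at an unadjusted p under 0.05). The highest array was cKO mouse 4, 0.51 above the mean of the other mutants, with Eomes at 8.39, Slc17a7 at 8.74 and Gad1 at 8.42 in that mouse. The same mouse was the highest mutant for Atp2b2 and Atp2b3, and also for both Slc8a1 clusters, for Slc8a2 (8.11) and for Slc24a2 (10.45). It was not the highest mutant for Slc8a3, Slc24a3, Slc24a4 or Atp2b1. Without it the Atp2b2 difference was 0.40. The part of bulb tissue in the Atp2b2 and Atp2b3 values was not tested. Control 4, the highest control for Atp2b2, had a bulb marker mean of 8.34, the lowest of the controls.

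**Figure D3:**
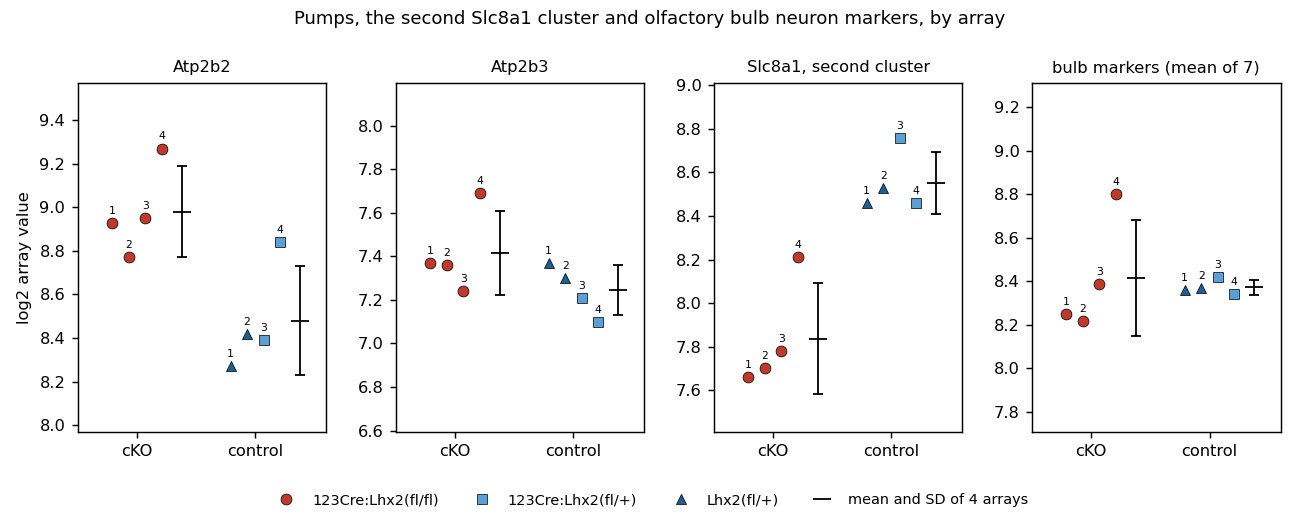
Log2 array values (vertical axis, all panels of the same height in log2 units) of Atp2b2, Atp2b3, the second Slc8a1 cluster and the mean of 7 olfactory bulb neuron markers in 4 cKO and 4 control mice, numbered within each group, with mean and SD. cKO mouse 4 is the highest mutant in all 4 panels, at 9.27, 7.69, 8.21 and 8.80.

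The members that were lower were next set beside the mature OSN markers of the same arrays. The 16 markers had means of 11.71, 11.05, 11.64 and 11.59 in cKO mice 1 to 4, and 12.21, 12.26, 12.27 and 12.29 in controls 1 to 4. cKO mouse 2 lay 0.60 below the mean of the other mutants, close to the 0.56 by which it was low in Slc24a2. In Slc8a1 the same mouse lay 0.07 above the other mutants, and in Slc24a4 it lay 0.03 below them. The 3 exchangers thus differed in where cKO mouse 2 lay among the mutants.

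Subtracting the marker mean from each gene, array by array, gave its level relative to mature OSN markers. On that scale Slc24a2 averaged -1.21 ± 0.07 in cKO mice and -1.19 ± 0.03 in controls, a difference of -0.01, and the spread among the mutants fell to an SD of 0.07. Slc8a1 read -3.22, -2.41, -3.14 and -2.88 in cKO mice 1 to 4, and -2.77, -2.93, -2.74 and -2.79 in controls 1 to 4, a difference of -0.10 with overlapping groups. In Slc24a4 the relative level was -0.88 ± 0.29 in cKO mice and -1.29 ± 0.11 in controls, a difference of 0.41, opposite in sign to the difference of the array values. This scale depends on the markers chosen, which differed singly by -1.81 to -0.11, and with a shift smaller than 0.35 the sign of Slc24a4 would not turn. The study's methods use another list of mature OSN mRNAs for such a correction, which was not used here. For these mutants the paper reports only a small decrease in the average of that list, smaller than the shift subtracted here. That average, as a share of control, lay above the 78.7% of Slc24a4, the 58.6% of Slc24a2 and the 55.0% of Slc8a1. The paper gives that average with a spread, which this comparison of means leaves out. The part of mature OSN number in the values of these exchangers was not tested. In the other 6 genes the relative difference lay between 0.73 for Slc24a3 and 1.26 for Atp2b2, beside -0.76 for the markers themselves. How much of each gene's mRNA in this tissue comes from mature OSNs was not measured.

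**Figure D4:**
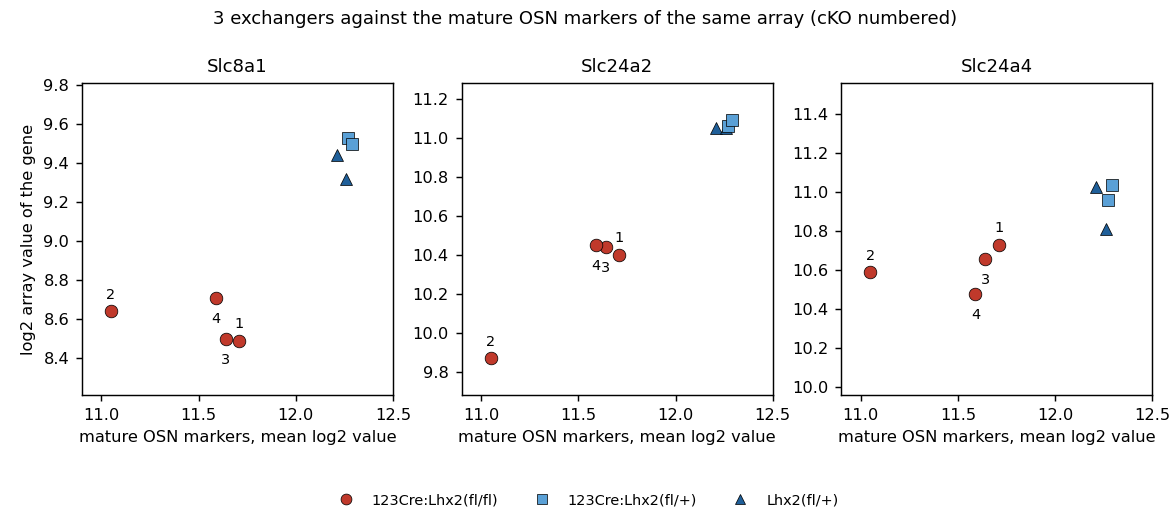
Log2 array values of Slc8a1, Slc24a2 and Slc24a4 (vertical axes) against the mean log2 value of 16 mature OSN markers on the same array (horizontal axis), with the cKO mice numbered. cKO mouse 2 is far to the left at 11.05 in every panel, and it is also the lowest mutant in Slc24a2 (9.87) but not in Slc8a1 (8.64) or Slc24a4 (10.59).

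Markers of other cell types moved less. The means of the lists for horizontal basal, sustentacular, microvillous, ensheathing glia, skeletal muscle, smooth muscle and vessel, macrophage, and cartilage and bone cells differed by -0.06 to 0.15 between cKO mice and controls, and by limma 0 of their genes were past the threshold (2 microvillous and 1 skeletal muscle gene at an unadjusted p under 0.05). Progenitor and dividing cell markers averaged 11.16 ± 0.05 in cKO mice and 11.03 ± 0.03 in controls, a difference of 0.13 with groups that did not overlap (exact permutation test, two-sided, p = 0.0286, and 0.186 after adjustment over the 13 lists). Immature OSN markers averaged 11.97 ± 0.07 in cKO mice and 12.04 ± 0.03 in controls, a difference of -0.07, and 1 of 16, Stmn4, was past the threshold. At an unadjusted p under 0.05 (limma, either direction) there were 5 of these 16 and 4 of the 6 measured progenitor markers, beside 15% of all genes. Every cKO array lay below every control array in 4 of the 16 (8.43% of all genes). Every cKO array lay above in 3 of the 6 (3.18% of all genes). Red blood cell markers, with 2 of 5 measured, differed by -0.32, and control values ran from 9.43 to 10.42. These lists too were chosen with earlier results of these data known, so the p-value of the progenitor list is not support. The part of these cell types in the values of the calcium extrusion genes was not tested.

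The genes that bring calcium in and handle it inside the cell were described by 8 further lists of 56 genes, of which 49 were measured. The 8 genes of olfactory calcium entry and response all had every cKO array below every control array, beside 8.43% of all genes. Of these 8 genes 3 were past the threshold and lower, beside 2.07% of all genes. The largest of these differences was that of Cnga4, which encodes a modulatory subunit of the channel through which calcium enters the cilia, at -1.60 (SE 0.20). Adcy3, whose product makes the cyclic AMP that opens this channel, differed by -0.86 (SE 0.09), and Pde1c, whose product breaks cyclic AMP down when calcium is high, by -0.55 (SE 0.07). The calcium-activated chloride channel gene Ano2 differed by -0.65 (SE 0.12) and did not pass. The median of the list was -0.63, beside 0.03 over all genes, and 7 of its 8 genes also stand among the mature OSN markers.

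Cnga4 read 9.81, 8.76, 9.72 and 9.65 in cKO mice 1 to 4, and 11.01, 11.10, 11.07 and 11.17 in controls 1 to 4. As in Slc24a2, cKO mouse 2 was the lowest mutant, and the controls lay close together.

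None of the 41 measured genes in the other 7 lists passed limma's threshold (0 genes), and 6 had an unadjusted p under 0.05, beside 15% of all genes. In 4 of them every cKO array lay below every control array and in 2 every cKO array lay above, beside 8.43% and 3.18% of all genes. Among the remaining exchangers of both families the largest difference was that of Slc8b1 (0.12), the mitochondrial sodium-calcium exchanger. Among the intracellular pumps it was that of Atp2c2 (-0.22), a pump of the secretory pathway, while Atp2a2, the main pump of the endoplasmic reticulum, differed by -0.05. The sodium pump sets the sodium gradient on which every exchanger runs, and its subunit Atp1b1 differed by -0.16 with groups that did not overlap. Of its 6 listed subunit genes only 3, all of them beta subunits, were measured.

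The partners of pumps and exchangers differed by -0.08 to 0.22. Nptn, which encodes neuroplastin, a subunit of the plasma membrane pumps, differed by -0.05, and Fxyd1, which encodes phospholemman, by 0.22. In the store list Ryr2, an intracellular calcium release channel, had the largest difference (0.22) and was highest in cKO mouse 4 at 7.77. The largest difference among mitochondrial uptake genes was that of Mcu, the pore of the uniporter, at -0.11. Among the cytosolic calcium binders it was that of Hpca, which encodes hippocalcin, at 0.32.

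**Figure D5:**
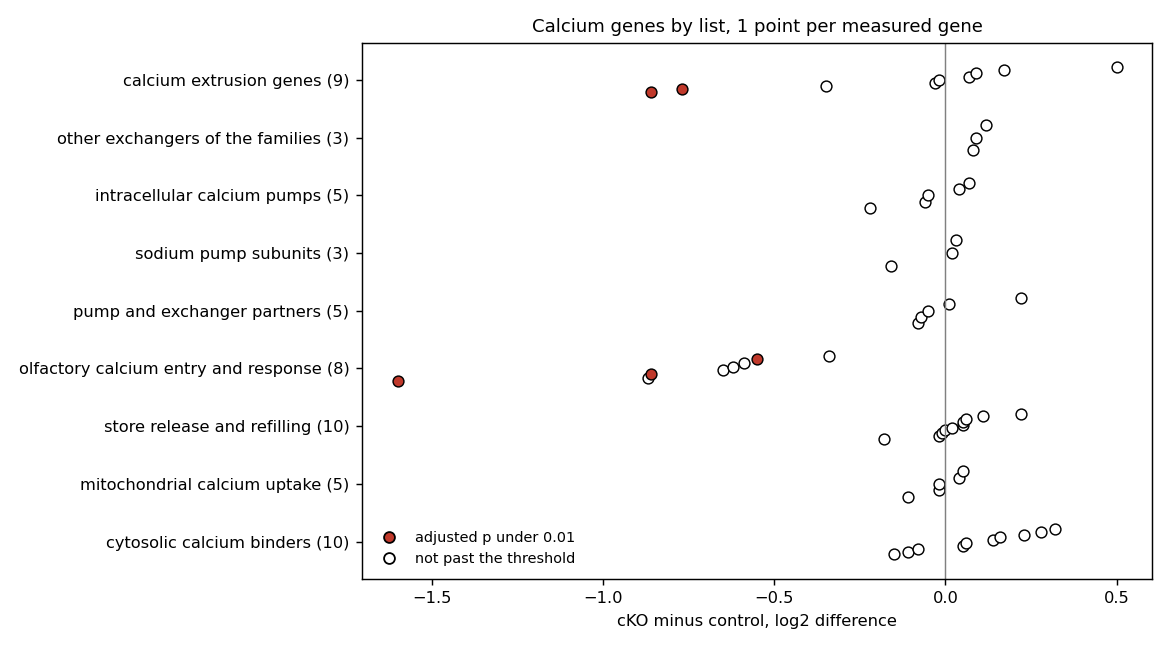
Log2 difference, cKO minus control (horizontal axis), of each measured gene in the calcium extrusion group and in 8 lists of other calcium genes, with the number measured in parentheses and genes at an adjusted p under 0.01 filled. All 8 genes of olfactory calcium entry and response lie below 0, down to -1.60 for Cnga4, and the 41 genes of the other 7 lists lie between -0.22 and 0.32.

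The control genotypes were also compared with each other, a contrast that played no part in the choice of genes. In 123Cre:Lhx2(fl/+) mice the transgene can also delete the floxed Lhx2 allele. The presence of 123Cre and the loss of that allele therefore cannot be told apart here. With 2 mice per genotype, 123Cre:Lhx2(fl/+) minus Lhx2(fl/+), limma called 0 genes at an adjusted p under 0.01 (0% of those tested) and 0 when the adjusted p was set at 0.05. Without adjustment at 0.05 it called 1551 of the 19928 genes tested. Of the calcium extrusion genes 0 of 9 had an unadjusted p under 0.05, and their smallest adjusted p was 0.729 by limma. With 9 genes, nothing is read from that count beside the share of all genes. Slc8a1 averaged 9.51 in 123Cre:Lhx2(fl/+) mice and 9.38 in Lhx2(fl/+) mice, a difference of 0.13 (SE 0.09). Slc24a2 averaged 11.07 in 123Cre:Lhx2(fl/+) mice and 11.05 in Lhx2(fl/+) mice, a difference of 0.03 (SE 0.18). The largest difference was that of Atp2b2, which averaged 8.61 in 123Cre:Lhx2(fl/+) mice and 8.35 in Lhx2(fl/+) mice, a difference of 0.27 (SE 0.19). What size of difference 2 mice per genotype could detect was not tested, and genotype and title letter cannot be told apart here.

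Genes whose values followed Slc8a1 and Slc24a4 most closely over the 8 arrays were listed as a description. The search covered 14938 genes with a mean above the lower quartile, and since both groups enter it, the difference between the groups is part of each Pearson r. For Slc8a1 they were Cfap69 (r = 0.994), Aplp2 (0.982), Efna3 (0.980), Stmn4 (0.977) and Mapk4 (0.976). After each group was centred on its own mean, r was 0.88 for Cfap69 and between 0.29 and 0.49 for the other 4. Cfap69, which encodes a protein of cilia and flagella, averaged 10.94 in cKO mice and 11.61 in controls, a difference of -0.67. Of these genes Cfap69, Efna3 and Stmn4 passed the threshold and were lower, beside 2.07% of all genes.

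For Slc24a4 the 5 genes were Olfr33 (r = 0.979), Dennd4a (0.972), Olfr606 (0.972), Memo1 (0.970) and Olfr518 (0.969). Their r after centring was between 0.86 and 0.94. As for Slc8a1, the centred r comes from the same arrays that picked the genes, so it is no separate check. Olfr33, Olfr606 and Olfr518 are odorant receptor genes. The share of such genes among those searched was not computed, so nothing is read from their presence here. Of these 5 genes Olfr33 alone passed the threshold, with 8.58 in cKO mice and 9.11 in controls, beside 2.07% of all genes lower. Since the difference between the groups helped to pick the genes of both searches, nothing is read from which of them passed.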

How the data were processed

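The values deposited by the authors are on the log2 scale, with 28312 transcript clusters on every Affymetrix GeneChip Mouse Gene ST array, 1 array for each mouse. The submitters' processing notes name Affymetrix Expression Console as their source. Its version, the summarization and the array's build were not given in the sources used here. Precision is limited by the number of arrays. Of the clusters, 21759 named 1 gene symbol, 1605 several and 4948 none, and 21668 were matched by Entrez identifier to RefSeq (GRCm38.p6), which changed 0 symbols.

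Groups were taken from the labels, and replicate numbers pair nothing. Differences across all genes were tested with limma 3.58.1 in R 4.3.3 (lmFit and eBayes, two-sided, Benjamini-Hochberg adjustment over 19928 genes, threshold 0.01), and the control genotypes in a fit with 3 groups. The fit was tested on simulated data. Marker lists were compared by exact permutation.

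The members and lists were chosen with earlier results of these data known. Named genes were all members, Lhx2, in each calcium list the genes past the threshold and the one with the largest absolute difference, and the 5 genes most like Slc8a1 and Slc24a4. Ano2, Atp2a2, Nptn and the single bulb markers were named after their values were seen. Sequences are from RefSeq. The alternatives were another test, threshold, variance prior, normalization or filter, array weights, title letter or sex (read from sex-linked mRNAs) as a block, 1 control genotype at a time, subtraction of the mature OSN marker mean, another cluster of the gene, and each array left out.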

Additional observations from a re-analysis of the deposited data

Results flagged for a closer look

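In groups of 4 arrays, an array far from the other 3 was looked for by its gap to the nearest array over the range of the group, against Dixon's critical value for 4 samples. Chance gives about 5% of such groups, and 4 of 46 were found. In Slc24a2 the gap of cKO mouse 2, at 9.87, to the next mutant was 0.92 of the range. In Lhx2 the same mouse, at 12.55, had a ratio of 0.97. In Slc8a3 control 2, at 9.97, had a ratio of 0.86. In the microvillous cell markers the lowest mutant was cKO mouse 4, with a mean of 9.98 and a ratio of 0.90.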

How the results depend on the processing

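Across all genes, 424 were past the threshold for cKO minus control. The count was 1104 at an adjusted p under 0.05, 1359 by the methods' t-test without adjustment at p under 0.01, 1 by the methods' t-test after adjustment, and 0 with only Lhx2(fl/+) controls or only 123Cre:Lhx2(fl/+) controls, where fewer arrays were tested. It ran from 30 to 676 when 1 array was left out. For the methods' t-test, values were not first normalized to mature OSN mRNAs as in the study. Its adjustment was that of Benjamini-Hochberg over all genes, so these counts are not those of the study's own procedure. Of the calcium extrusion genes, 2 were past the threshold, 3 at an adjusted p under 0.05 (Slc24a4 the third) and 3 by the unadjusted t-test. The number was 0 by the methods' t-test after adjustment and 0 with either control genotype alone, and 1 to 2 with 1 array left out. It stayed at 2 under quantile normalization, the trended and robust prior, the filter on dim genes, array weights and either block.

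Between the control genotypes the count was 0 under the other alternatives and 0 to 1 with 1 array left out. The mature OSN marker difference ran from -0.83 to -0.61 with 1 array left out and from -0.78 to -0.73 over single control genotypes and quantile normalization. With 7 arrays the permutation test cannot give a p below 0.0571. Slc8a1, Slc8a2, Slc24a2, Slc24a4, Atp2b2 and Atp2b3 kept their sign in all 15 alternatives other than the subtraction of the marker mean. Slc8a3 kept it in 14 of these, Atp2b1 in 13 and Slc24a3 in 7. No paired analysis was possible because the replicate numbers were given in accession order and no label ties a mouse to a litter. With the title letter as a block, 617 genes were past the threshold.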
